A study of Mus musculus with 18 samples.

Results

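The late response to the lipopeptide Pam3CSK4 (PAM3) was measured in bone-marrow-derived macrophages of C57BL/6 (B6) mice that had received no oxysterol. The comparison was chosen by the sample labels: 3 libraries of PAM3-stimulated cells against 3 libraries of cells at rest, 6 of the 18 libraries of the study, described over all expressed genes. The cells were phagocytes grown in culture from bone marrow, and their polyadenylated RNA was sequenced. The PAM3 libraries came from cells given 300 ng/mL of PAM3 with a labelled stimulation time of 18, and the libraries at rest from cells without stimulus with a labelled time of 0. The unit of this time is not given in the labels, nor is it stated whether cells at rest were kept in culture for as long, so stimulus and culture time cannot be told apart. The titles of the libraries at rest also carry the words 25-hydroxycholesterol control, which those of the PAM3 libraries lack. Both groups were wild type, and libraries with the same number came from the same mouse. The other 12 libraries were B6 macrophages treated with 5 µM of 25-hydroxycholesterol (25HC) for 18 hours before any stimulus, and Ch25h-/- macrophages, which lack the enzyme that makes 25HC, each with PAM3 and at rest. They entered the shared estimate of the spread and 2 comparisons given at the end.

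PAM3 is a synthetic copy of the lipid-bearing end of bacterial lipoproteins. It is bound by a pair of surface receptors, Toll-like receptor 1 (TLR1) and Toll-like receptor 2 (TLR2), which signal through the adaptor MyD88 and IRAK kinases to the transcription factor NF-kB and to MAP kinases. NF-kB switches on cytokine and chemokine genes together with the genes of its own inhibitors, and macrophages exposed for many hours are known for a changed metabolism, fewer dividing cells and a rearranged set of surface receptors.

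Most expressed genes differed in level between PAM3-stimulated cells and cells at rest. Of 12741 genes tested with edgeR's quasi-likelihood test, 7912 (62.1%) had an adjusted p below 0.05, of which 3988 were higher with PAM3 (31.3%) and 3924 were lower (30.8%). A change of at least 2-fold was called for 1538 genes that were higher (12.1%) and for 2323 that were lower (18.2%), and one of at least 32-fold for 125 and 152. The 3 PAM3 libraries and the 3 at rest did not overlap for 7420 of the called genes (58.2% of those tested), and for 63% of tested genes at any p. Because such a large share of genes was called, counts within a gene group are given below against 31.3% higher and 30.8% lower, and against a median log2 fold change of 0.00 over all tested genes. The scaling of the libraries centres fold changes near 0, so they are relative and cannot show a shift in total RNA. There were 76 called genes below 1 CPM (read counts scaled to library totals) at rest and at or above 5 CPM with PAM3, and 140 with the opposite pattern. In bulk RNA, fewer cells that express a gene and less RNA per cell cannot be told apart.

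**Figure D1:**
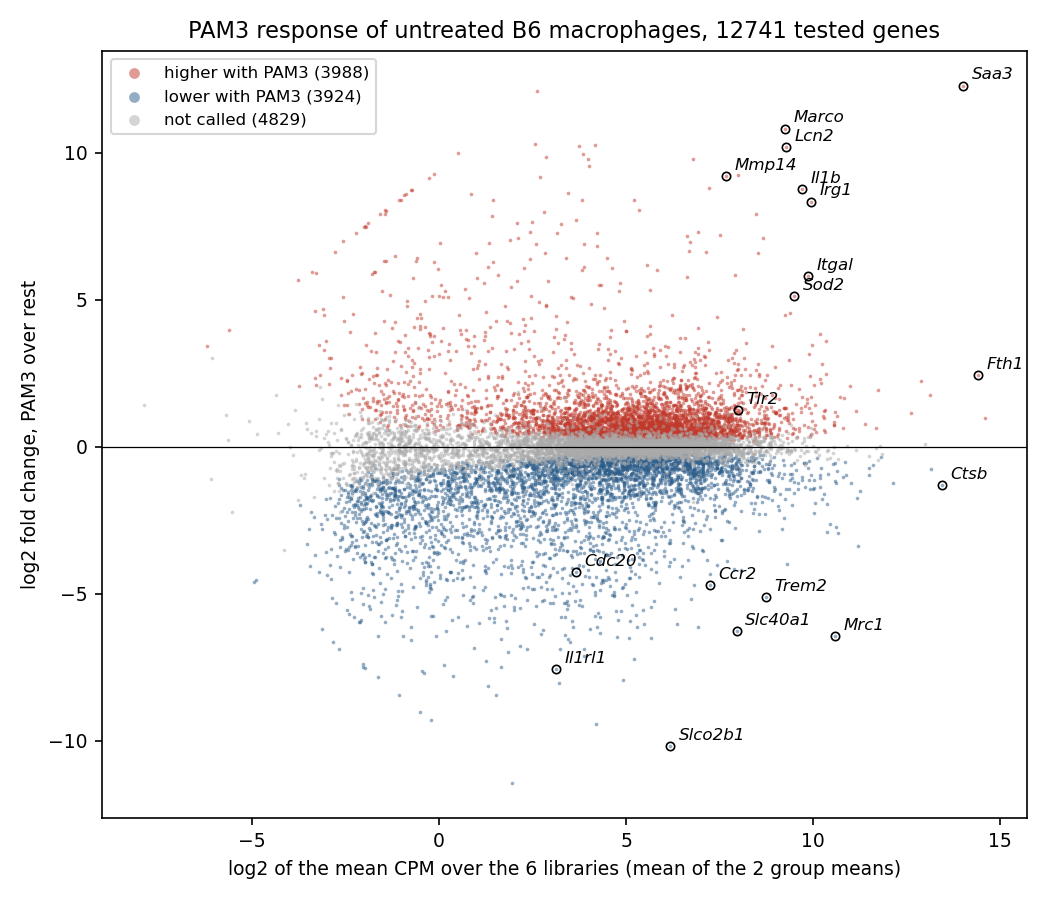
Each point is a tested gene, with the log2 of its mean CPM over both groups on the x axis and the log2 fold change, PAM3 over rest, on the y axis. Red points were called higher with PAM3 (3988), blue points lower (3924) and grey points were not called, and circles mark genes named in the text. Saa3 stands at the upper right with a log2 fold change of 12.29, and Slco2b1 at the bottom with -10.18.

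Total counts were 42080438, 150440297 and 39966508 in the PAM3 libraries and 30753685, 68549136 and 44936844 in those at rest. Genes called at least 2-fold higher held 29.0% to 30.8% of all counts with PAM3, against 8.13% to 9.16% at rest, and genes called at least 2-fold lower held 5.51% to 5.61% against 19.8% to 22.1%. These shares describe the calls and are no test of them. All 10 macrophage markers listed were measured, and their summed level was 48660 to 61990 CPM with PAM3 and 28720 to 35940 CPM at rest. The 10 markers split, with 6 called higher and 4 lower and log2 fold changes from -2.78 to 2.23. Lyz2 alone had 26630, 32740 and 38520 CPM with PAM3, against 14610, 19140 and 15480 CPM at rest. Among markers of other cells, Cd3e, Cd3g, Cd8b1, Blk, Alas2 and Tpsb2 had no counts in these 6 libraries. The summed levels with PAM3 and at rest were at most 0.13 and 0.29 CPM for 7 natural killer cell markers, 19.0 and 20.2 CPM for 7 B cell markers, 11.2 and 9.95 CPM for 11 neutrophil markers, 10.6 and 3.61 CPM for 8 dendritic cell markers and 10.2 and 4.33 CPM for 7 fibroblast markers. Osteoclast markers summed to 64.7 to 90.3 CPM with PAM3 and to 121 to 157 CPM at rest, and mast cell and erythroid markers stayed below 1 CPM in both groups. The part of these markers in the results was not tested. The T cell list summed to 4.14 to 5.12 CPM with PAM3 and to 133 to 209 CPM at rest, nearly all of it from Cd28 and Cd4. On the second principal component the library of mouse 2 at rest stood apart from the other libraries at rest, at -40.3 against 29.7 and 13.1, and results that rest on it are given with and without it.

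The receptors of PAM3 themselves were higher after stimulation. Tlr1 had 533, 492 and 473 CPM with PAM3, against 79.2, 73.7 and 84.4 CPM at rest, a log2 fold change of 2.66 ± 0.14 (standard error; adjusted p = 2e-09, edgeR). Tlr2 had 420, 306 and 358 CPM with PAM3, against 128, 180 and 145 CPM at rest, and rose by 1.26 ± 0.20 on the log2 scale (adjusted p = 6e-05). In neither gene did the groups overlap. Tlr6, the other partner of TLR2, rose by 0.69 ± 0.13 on the log2 scale (adjusted p = 0.000338), and the co-receptor Cd14 by 0.75 ± 0.20 (adjusted p = 0.00404).

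Several receptors for other microbial products were lower. Tlr5, the flagellin receptor, had 0.0766, 0.178 and 0.197 CPM with PAM3, against 10.6, 16.8 and 11.7 CPM at rest (log2 fold change -6.35 ± 0.70, adjusted p = 2.2e-06). Tlr4, the lipopolysaccharide receptor, had 117, 92.0 and 77.2 CPM with PAM3, against 259, 174 and 263 CPM at rest (log2 fold change -1.28 ± 0.19, adjusted p = 4.3e-05). Of the 11 tested surface receptors and co-receptors, 5 were called higher and 4 lower. Of 6 tested genes in the list of endosomal receptors, none was called higher and 5 lower, with a median log2 fold change of -1.09. These 5 were the receptors, which sense nucleic acids. The other gene, Unc93b1, is not a receptor. It had 917, 1380 and 1173 CPM with PAM3, against 692, 1141 and 746 CPM at rest, and was called higher only without library 2 at rest among the fits that left 1 library out. Of the receptors, Tlr13, a sensor of bacterial ribosomal RNA in mice, had 102, 91.2 and 79.3 CPM with PAM3, against 851, 476 and 663 CPM at rest (log2 fold change -2.87). Tlr7 fell to 174, 106 and 107 CPM with PAM3, against 558, 535 and 579 CPM at rest. Tlr3 and Tlr8 fell by 0.82 and 1.10 on the log2 scale. The fall of Tlr9 (log2 fold change -1.09, adjusted p = 0.0352) was not called without PAM3 library 1 (adjusted p = 0.129), without PAM3 library 3 (0.0838) or without library 2 at rest (0.205).

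Downstream of the receptors, several inhibitors of the pathway rose. Irak3, which encodes a kinase-dead IRAK that holds back TLR signalling, had 483, 406 and 447 CPM with PAM3, against 43.4, 49.1 and 43.0 CPM at rest (log2 fold change 3.30 ± 0.15, adjusted p = 5.5e-10). Irak2 rose by 1.61 and Myd88 by 1.04 on the log2 scale. Of 24 tested adaptor and kinase genes, 12 were called higher and 2 lower, the second count being 5 without PAM3 library 1. Of 16 tested NF-kB subunits and inhibitors, 9 were called higher and none lower, with a median log2 fold change of 1.02. Nfkbia, which encodes the inhibitor IkB-alpha, had 803, 923 and 888 CPM with PAM3, against 78.7, 87.3 and 73.7 CPM at rest (log2 fold change 3.45 ± 0.25, adjusted p = 4.1e-08). Nfkbiz, a nuclear cofactor of NF-kB, rose by 4.01 ± 0.31, Tnip1 by 2.28 ± 0.19 and Tnfaip3, which encodes the ubiquitin-editing inhibitor A20, by 1.88 ± 0.26 on the log2 scale. The subunit gene Nfkb1 rose by 0.87 ± 0.11. Rela, the main activating subunit, had 81.9, 84.8 and 91.4 CPM with PAM3, against 88.1, 107 and 88.9 CPM at rest, and was not called (adjusted p = 0.221).

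Upstream sequences of 5 genes are shown because these genes stand for the NF-kB inhibitors, itaconate synthesis, cytokine feedback and mitosis described here and hold matches to the motifs searched. Each line gives the 250 bases before the RefSeq start site, 5′ to 3′ on the gene's strand, with GRCm38.p6 coordinates, and capitals mark every match on either strand to GGANNTTCC (NF-kB), GAAANNGAA (interferon-stimulated response element), TGANTCA (AP-1) and TTTGAA (cell cycle homology region).
Nfkbia, chr12:55492648-55492897, minus strand: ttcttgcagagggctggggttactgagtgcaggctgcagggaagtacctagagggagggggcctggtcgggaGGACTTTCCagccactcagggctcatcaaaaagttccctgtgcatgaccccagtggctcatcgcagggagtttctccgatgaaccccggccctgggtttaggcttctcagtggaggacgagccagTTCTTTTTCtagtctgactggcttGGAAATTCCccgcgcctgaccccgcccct
Tnfaip3, chr10:19015411-19015660, minus strand: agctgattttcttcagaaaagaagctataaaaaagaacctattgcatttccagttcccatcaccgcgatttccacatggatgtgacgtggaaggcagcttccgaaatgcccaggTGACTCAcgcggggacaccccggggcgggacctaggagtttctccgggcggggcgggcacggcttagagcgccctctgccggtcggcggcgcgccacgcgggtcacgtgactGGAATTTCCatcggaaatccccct
Irg1, chr14:103046762-103047011, plus strand: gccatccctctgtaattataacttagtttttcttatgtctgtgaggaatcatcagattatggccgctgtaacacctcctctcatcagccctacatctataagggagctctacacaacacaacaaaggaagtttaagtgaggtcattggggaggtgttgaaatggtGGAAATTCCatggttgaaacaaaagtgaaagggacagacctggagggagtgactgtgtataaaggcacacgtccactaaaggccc
Socs1, chr16:10785537-10785786, minus strand: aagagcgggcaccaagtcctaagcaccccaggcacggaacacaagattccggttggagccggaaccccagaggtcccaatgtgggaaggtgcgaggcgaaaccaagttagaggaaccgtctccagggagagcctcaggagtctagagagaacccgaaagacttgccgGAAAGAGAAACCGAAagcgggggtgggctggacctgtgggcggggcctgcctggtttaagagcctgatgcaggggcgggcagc
Cdc20, chr4:118437344-118437593, minus strand: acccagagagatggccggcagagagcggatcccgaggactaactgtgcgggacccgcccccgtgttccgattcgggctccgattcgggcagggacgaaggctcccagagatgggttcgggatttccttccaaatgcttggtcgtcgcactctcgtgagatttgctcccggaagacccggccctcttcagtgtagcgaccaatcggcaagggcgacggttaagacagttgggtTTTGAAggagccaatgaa
Nfkbia holds NF-kB matches 178 and 29 bases before its start site and an interferon-response match 53 bases before it. Tnfaip3 holds an NF-kB match 24 bases before its start site and an AP-1 match 136 bases before it, and Irg1, listed by RefSeq as Acod1, holds an NF-kB match 85 bases before it. Socs1 has a pair of overlapping interferon-response matches, 83 and 77 bases before the start site, and Cdc20 has TTTGAA at 18 bases. Over windows from 250 bases before to 50 bases after the start site, 4 of the 13 NF-kB pathway genes with a window held the NF-kB motif (30.8%), against 4.26% of all 32851 windows in the table. Of 24 mitosis genes with a window, 16 held TTTGAA (66.7%), against 17.9% of all windows. Of 11 acute-phase and antimicrobial genes with a window, 2 held the NF-kB motif and 3 the interferon-response motif (8.56% of all windows). TTTGAA was not particular to the mitosis list, since 5 of these 11 genes held it (45.5%), and 0 of the 13 NF-kB pathway genes did. A match describes these letters only. Windows were found for 382 of the 503 genes called at least 4-fold higher and for 852 of the 1130 called at least 4-fold lower, fewer than 80% of each, so the check over those genes is void.

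Among other transcription factors, Batf, an AP-1 family member, had 134, 135 and 159 CPM with PAM3, against 6.27, 7.39 and 5.30 CPM at rest (log2 fold change 4.49 ± 0.21). Fos rose by 1.34 on the log2 scale. Of 13 tested EGR, NR4A and KLF factors, which include many early-response genes, 2 were called higher and 8 lower, and Klf2 and Klf4 fell by 2.57 and 2.08 and Egr1 by 1.68. Feedback regulators split, with 8 of 20 called higher and 9 lower. Socs1 and Socs3, inhibitors of cytokine receptor signalling, were among those called higher. Socs1 had 25.3, 21.7 and 20.6 CPM with PAM3, against 0.711, 0.669 and 0.602 CPM at rest (log2 fold change 5.09 ± 0.41). Socs3 had 363, 352 and 369 CPM with PAM3, against 1.79, 3.96 and 1.37 CPM at rest (7.21 ± 0.48, and 7.85 without library 2 at rest). Zc3h12a, an RNase that degrades cytokine messages, and the MAP kinase phosphatase gene Dusp2 rose by 2.72 and 3.68, and the phosphatase gene Dusp3 fell by 1.29.

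Cytokine genes were high with wide spread between mice. Of 21 tested inflammatory cytokine genes, 14 were called higher and 1 lower, with a median log2 fold change of 2.12. Il1b, which encodes the pyrogenic cytokine interleukin-1 beta, had 2755, 798 and 1421 CPM with PAM3, against 4.95, 4.49 and 2.04 CPM at rest (log2 fold change 8.76 ± 0.95, adjusted p = 1.9e-06). Il1a had 707, 48.9 and 126 CPM with PAM3, against 1.30, 0.376 and 0.478 CPM at rest. Its log2 fold change of 8.80 ± 1.25 was 7.05 without PAM3 library 1 and 9.44 without library 1 at rest. Il6 had 66.0, 9.41 and 21.4 CPM with PAM3, against 0.155, 0.0139 and 0 CPM at rest (9.55 ± 1.16). It was 8.48 without PAM3 library 1, 11.50 without library 1 at rest and 8.93 without library 2 at rest. Mouse 1 gave the highest PAM3 value for all 3 of these cytokines, and for 15 of the 21 in the list. Il1rn, the antagonist of interleukin-1, had 285, 188 and 261 CPM with PAM3, against 40.3, 19.7 and 27.4 CPM at rest (3.07 ± 0.31), and Il10, an anti-inflammatory cytokine, had 14.7, 22.5 and 25.6 CPM, against 4.45, 3.76 and 4.36 CPM at rest (2.32 ± 0.28). Tnf, the gene of tumour necrosis factor, had 267, 190 and 205 CPM with PAM3, against 36.2, 11.1 and 17.5 CPM at rest (3.36 ± 0.52, adjusted p = 5e-05, and 3.96 without library 1 at rest), and was chosen after its values were seen. Ebi3, a subunit of interleukin-27 and interleukin-35, rose by 2.05 ± 0.24.

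Chemokines rose in both families. Of 12 tested CC chemokines, 8 were called higher and 2 lower, the second count being 1 without PAM3 library 1, PAM3 library 2 or library 2 at rest. Of 11 tested CXC chemokines, 7 were called higher and none lower, or 1 lower without library 2 at rest. Ccl5, which attracts T cells and monocytes, had 829, 605 and 988 CPM with PAM3, against 8.31, 6.65 and 2.56 CPM at rest (log2 fold change 7.12 ± 0.77, adjusted p = 2e-06). Ccl3, an attractant of monocytes, rose by 2.44 and the interferon-linked Cxcl10 by 1.45 on the log2 scale. Cxcl3, which attracts neutrophils, had 46.5, 2.55 and 13.6 CPM with PAM3, against 0.680, 0.0836 and 0.125 CPM at rest. Its log2 fold change of 6.42 ± 1.12 was 5.02 without PAM3 library 1, 7.65 without library 1 at rest and 5.83 without library 2 at rest.

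Receptors for chemoattractants changed in both directions. Of 14 tested, 3 were called higher and 9 lower. Fpr1, a receptor for formylated bacterial peptides, had 236, 168 and 213 CPM with PAM3, against 2.32, 1.49 and 1.23 CPM at rest (log2 fold change 6.97 ± 0.29, adjusted p = 2.2e-10), and its relative Fpr2 rose by 5.33 ± 0.33. Ccr2, the receptor for the monocyte chemokine CCL2, fell to 12.5, 9.54 and 11.8 CPM with PAM3, against 264, 246 and 361 CPM at rest (-4.69 ± 0.23, adjusted p = 9.5e-10). Cxcr4 had 0.996, 0.854 and 1.69 CPM with PAM3, against 50.4, 165 and 88.2 CPM at rest (-6.49 ± 0.54, and -5.95 without library 2 at rest). Cytokine receptors also split, with 7 of 25 called higher and 11 lower. Il18rap, a subunit of the interleukin-18 receptor, fell by 5.91 ± 0.21, Il7r by 3.80 ± 0.44 and Il6st, the shared signalling subunit of the interleukin-6 family, by 2.36 ± 0.21 on the log2 scale. The subunits of the interferon-gamma receptor went apart, Ifngr2 being 1.11 ± 0.11 higher and Ifngr1 1.43 ± 0.20 lower (log2 fold change -1.43).

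**Figure D2:**
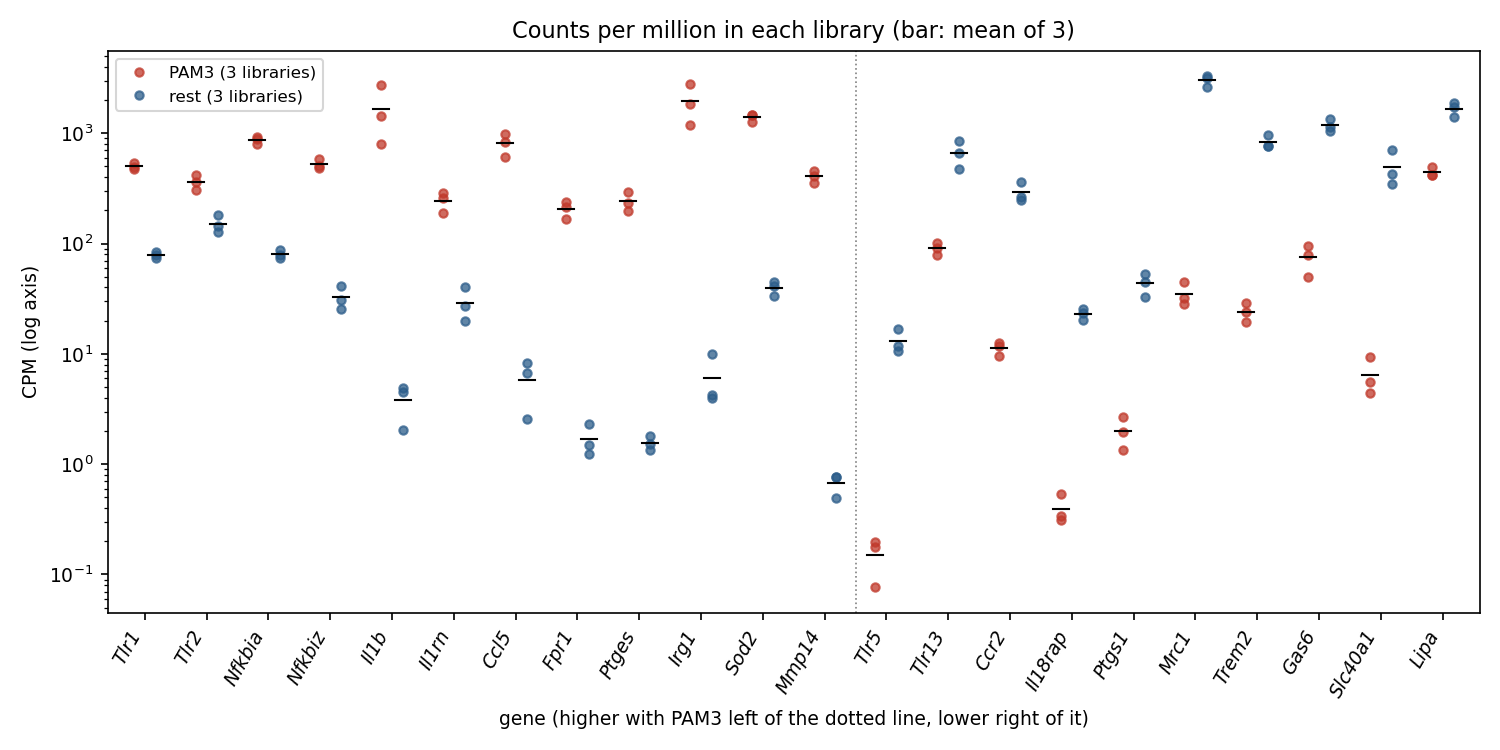
CPM of 22 named genes in each library, on a log axis, with PAM3 libraries (red) left of libraries at rest (blue) and black bars at the mean of 3. The 12 genes left of the dotted line were higher with PAM3 and the 10 right of it lower. In each of these 22 chosen genes the groups do not overlap, which held for 63% of all tested genes at any p. The widest spread among PAM3 libraries is that of Il1b, from 798 to 2755 CPM.

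Genes of prostaglandin and leukotriene synthesis held large changes in both directions. Ptges, the inducible prostaglandin E synthase, had 294, 196 and 232 CPM with PAM3, against 1.79, 1.34 and 1.52 CPM at rest (log2 fold change 7.30 ± 0.53, adjusted p = 4.6e-08). Ptgs1, the constitutive cyclooxygenase, had 1.35, 2.68 and 1.97 CPM with PAM3, against 33.0, 53.4 and 45.1 CPM at rest (-4.41 ± 0.35). The inducible cyclooxygenase Ptgs2 had 421, 68.6 and 120 CPM with PAM3, against 4.76, 0.474 and 1.12 CPM at rest, and was chosen after its values were seen. Ltc4s, which makes leukotriene C4, fell by 5.79 ± 0.37, Alox5ap, the partner of 5-lipoxygenase, by 1.69 ± 0.14 and Hpgd, which breaks down prostaglandins, by 7.92 ± 0.67. Of the 17 tested genes of this group, 6 were called higher and 7 lower.

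Of 13 tested genes of nitric oxide, arginine and itaconate metabolism, 8 were called higher and 1 lower. Irg1, the enzyme that makes the antimicrobial metabolite itaconate, had 2813, 1195 and 1841 CPM with PAM3, against 10.01, 4.25 and 3.97 CPM at rest (log2 fold change 8.34 ± 0.92, adjusted p = 2.3e-06). Nos2, the inducible nitric oxide synthase, had 17.3, 3.62 and 12.4 CPM with PAM3, against 0.0927, 0.0697 and 0 CPM at rest (7.65 ± 1.09). Gch1, which makes the cofactor of that synthase, rose by 1.65 ± 0.19. For these 3 genes the lowest PAM3 value was that of mouse 2.

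Among the largest rises were acute-phase and scavenger receptor genes. Saa3, an acute-phase apolipoprotein gene on chromosome 7 (chr7:46711998-46715700, GRCm38), had 27660, 30300 and 41270 CPM with PAM3, against 1.92, 8.26 and 9.39 CPM at rest (log2 fold change 12.29 ± 0.83, adjusted p = 2.1e-08). Marco, a scavenger receptor for bacteria, had 1074, 1158 and 1397 CPM with PAM3, against 0.278, 0.878 and 0.706 CPM at rest (10.83 ± 0.40). Lcn2, which withholds iron from bacteria, had 1172, 1004 and 1538 CPM, against 0.742, 1.27 and 1.08 CPM at rest (10.19 ± 0.68). In all 3 genes every PAM3 library was above 1000 CPM and every library at rest below 10 CPM. Hp, which encodes the haemoglobin-binding protein haptoglobin, and Cp, the ferroxidase ceruloplasmin, rose by 9.81 ± 0.80 and 6.60 ± 0.65, the second being 7.25 without library 2 at rest. Of 12 tested acute-phase and antimicrobial genes, 9 were called higher and 2 lower, with a median of 2.75, and the second count was 1 without PAM3 library 2. Slpi and Camp, a protease inhibitor and an antimicrobial peptide gene, had log2 fold changes of 5.43 and 3.83.

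Several of the largest rises were genes with almost no counts at rest. Shisa3 had 47.3, 27.9 and 33.3 CPM with PAM3, against 0, 0.0279 and 0.0415 CPM at rest (10.28 ± 0.39), and Draxin, a secreted guidance protein gene, rose by 9.81 ± 0.81. Edn1, which encodes the vasoconstrictor endothelin-1, rose by 9.96 ± 0.91, and by 10.87 without library 2 at rest. Raver2 had 0 counts at rest and was at least 834-fold higher with PAM3, taking 3 counts over the group as the floor. For genes with 1 to 3 counts at rest the ratio of summed counts was 1820 for Nhs (95% interval 327 to 72000), 1270 for Lad1 (436 to 6180) and 1320 for Ifitm7 (364 to 10900), intervals that cover counting error only. Fitted log2 fold changes of these genes moved when 1 library was left out, Raver2 to 11.29 rather than 12.11 without PAM3 library 2, and Nhs to 11.97 rather than 10.30 and Ifitm7 to 12.28 rather than 9.85 without library 2 at rest.

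The largest falls included transporters, receptors and cell cycle genes. Slco2b1, an organic anion transporter gene, had 0.0511, 0.142 and 0.141 CPM with PAM3, against 108, 187 and 140 CPM at rest (log2 fold change -10.18 ± 0.72, adjusted p = 3.5e-08). Il1rl1, the receptor for interleukin-33, had 0.0766, 0.107 and 0.0563 CPM with PAM3, against 17.6, 14.9 and 19.4 CPM at rest (-7.55 ± 0.27). Cmah, which makes a sialic acid that humans lack, fell by 7.21 ± 0.49, Shisa9 by 7.50 ± 0.60 and Neil3, a DNA glycosylase gene, by 7.10 ± 0.76. Gprc5c had a log2 fold change of -9.44, and -8.45 without library 2 at rest, and the cell cycle repressor E2f7 one of -8.02, and -8.80 without PAM3 library 1. Without PAM3 library 2 the log2 fold change of Zbtb16, a zinc finger transcription factor gene, was -7.88 rather than -6.99, and that of Ankle1 -7.48 rather than -6.87. Abca6, a transporter gene of the ABC family, had 0 counts with PAM3 and was at least 622-fold lower, and BC106179 had 3 counts with PAM3 against 968 at rest, a ratio of 456 (95% interval 156 to 2220).

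Among the genes that hold the most counts, the called rises of at least 2-fold were headed with PAM3 by Saa3, Fth1, Tmsb4x, Emr1, Actb, Cybb, Eif4g2 and Pkm. Fth1, the heavy chain of the iron store ferritin, had 32950, 34190 and 43320 CPM with PAM3, against 6170, 8076 and 6146 CPM at rest (2.44 ± 0.19). Emr1, the gene of the macrophage antigen F4/80, had 11540, 12760 and 12830 CPM, against 2397, 2917 and 2610 CPM at rest (2.23 ± 0.17). Cybb, the catalytic subunit of the phagocyte NADPH oxidase, rose by 1.94 ± 0.21. Actb, Tmsb4x, Fth1 and Pkm have near-identical copies in the genome, so their values are uncertain. The falls were headed at rest by Ctsb, Psap, Sepp1, Lrp1, Ahnak, Mrc1, Spp1 and Itm2b. Mrc1, the mannose receptor, had 32.1, 44.6 and 28.2 CPM with PAM3, against 3172, 2595 and 3278 CPM at rest (-6.43 ± 0.59, adjusted p = 3.8e-07). Ctsb, a lysosomal protease, had 6193, 5862 and 7377 CPM, against 14900, 18330 and 14410 CPM at rest (-1.29 ± 0.16), and Sepp1, the selenium carrier selenoprotein P, fell by 3.37 ± 0.60.

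Genes for the uptake of dead cells were lower as a group. Of 15 tested efferocytosis genes, none was called higher and 13 lower, with a median log2 fold change of -1.60. Gas6, a bridging molecule that links dead cells to their receptors, had 50.1, 95.0 and 79.3 CPM with PAM3, against 1149, 1358 and 1041 CPM at rest (-3.98 ± 0.38, adjusted p = 6.4e-07), and Mertk, its receptor, had 21.7, 35.8 and 26.3 CPM, against 135, 272 and 171 CPM at rest (-2.78 ± 0.42). Scavenger and lectin receptors were mixed, with 9 of 27 higher and 10 lower. Trem2, a lipid-sensing receptor, had 19.5, 24.0 and 28.9 CPM with PAM3, against 773, 964 and 759 CPM at rest (-5.11 ± 0.18, adjusted p = 4e-11), and Stab1 and Clec10a, receptors linked to alternative activation, fell by 1.93 and 4.77. Of 16 tested alternative activation genes, 5 were called higher and 8 lower, with a median of -1.88. The members called higher included the chemokine Ccl22, which had 20.6, 2.90 and 8.19 CPM with PAM3, against 0.216, 0.0975 and 0.0831 CPM at rest (6.40, and 5.47 without PAM3 library 1). Of 21 macrophage identity genes, 7 were called higher and 9 lower: Itgam, the integrin CD11b, rose by 0.77 and Cd68, a lysosomal glycoprotein, fell by 2.25.

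Lysosomal genes were more often lower than higher, with 16 of 29 tested genes called lower, 4 higher and a median of -0.63. Atp6v0d2, a subunit of the proton pump, fell to 2.25, 1.81 and 2.53 CPM with PAM3, against 36.3, 58.6 and 56.5 CPM at rest (-4.54 ± 0.36). Ctsl and Hexa fell by 1.42 and 1.11, and Lipa, the acid lipase that frees cholesterol from esters, by 1.92 ± 0.17.

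**Figure D3:**
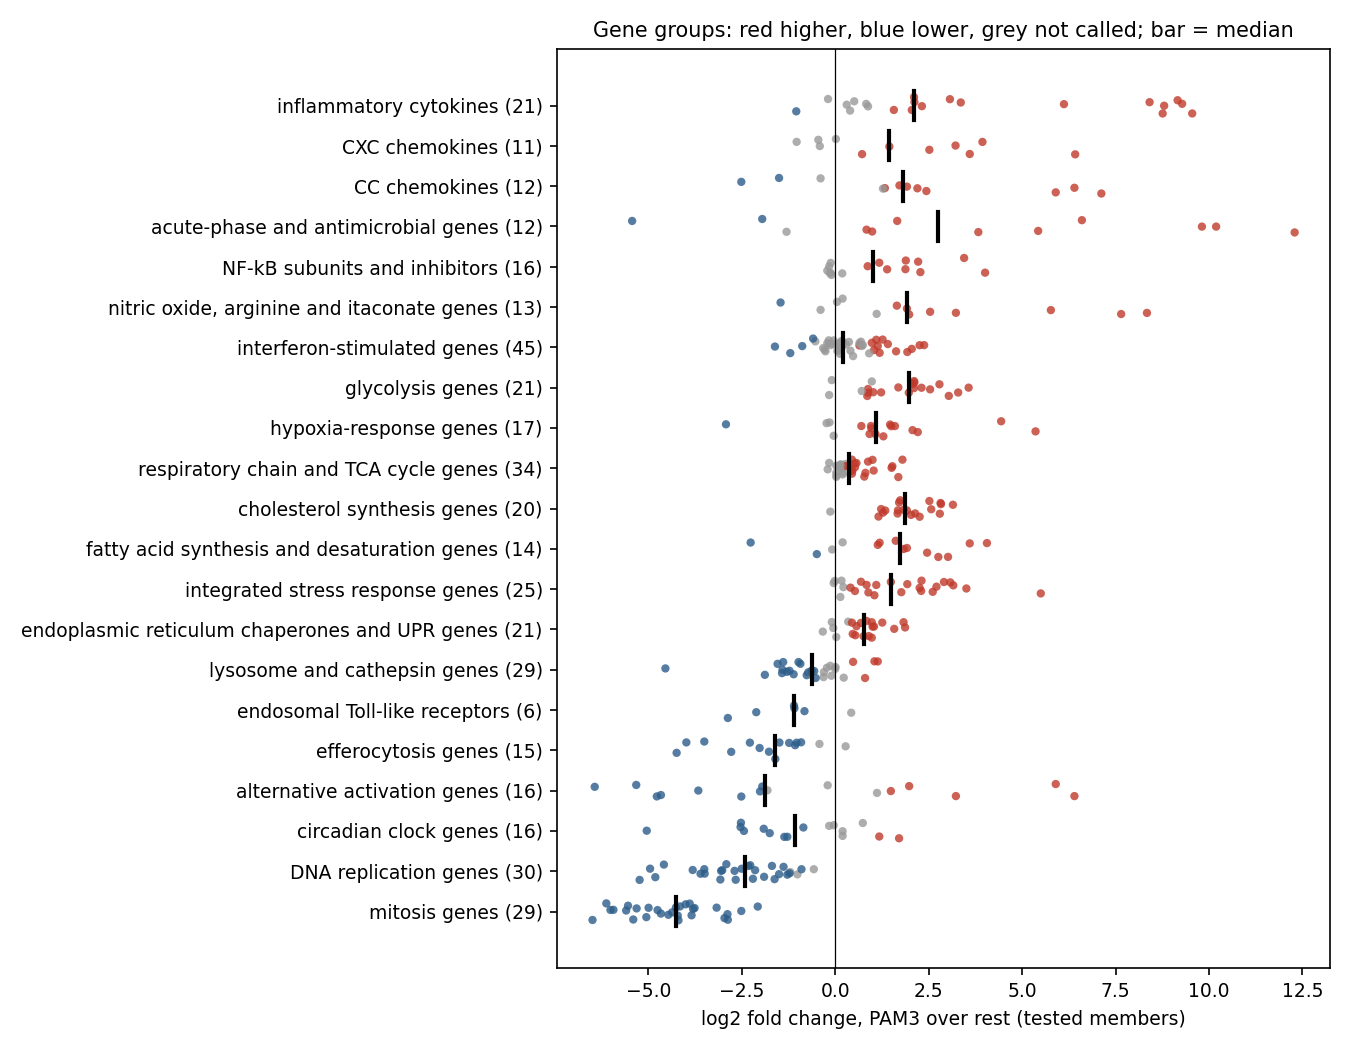
Log2 fold change, PAM3 over rest, of each tested member of 21 gene groups, with the number tested in brackets and a black bar at the median. Red members were called higher, blue lower and grey not called. Members of the mitosis list all lie to the left of 0, and 19 of 20 in the cholesterol synthesis list were called to the right of it.

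Glycolysis genes were higher. Of 21 tested, 17 were called higher and none lower, with a median log2 fold change of 1.97. Library 2 was the lowest of the 3 at rest for 15 of these 21 genes. Hk2, which traps glucose in the cell, had 272, 266 and 265 CPM with PAM3, against 32.4, 24.1 and 25.6 CPM at rest (3.29 ± 0.19, adjusted p = 4.3e-09), Pfkfb3, an activator of the pathway, rose by 3.57 ± 0.23 and Slc16a3, a lactate exporter, by 3.04 ± 0.35. Gapdh had 46.0, 37.6 and 46.0 CPM with PAM3, against 11.7, 8.17 and 10.2 CPM at rest, and has many near-identical copies, so its value is uncertain. Of 17 hypoxia-response genes, 13 were called higher and 1 lower, among the higher Egln3, an oxygen sensor, with 16.4, 15.3 and 18.3 CPM against 1.05, 0.474 and 0.852 CPM at rest (4.44 ± 0.38). Respiratory chain and citric acid cycle genes rose less, with 20 of 34 called higher, none lower and a median of 0.37. Cox5a, a subunit of cytochrome c oxidase, rose by 1.69 ± 0.13 and citrate synthase, Cs, by 1.00 ± 0.13, and succinate dehydrogenase Sdha had 227, 235 and 257 CPM with PAM3, against 224, 205 and 227 CPM at rest, and was not called (adjusted p = 0.212).

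Genes of lipid synthesis were higher. Of 20 tested cholesterol synthesis genes, 19 were called higher, all by at least 2-fold, and none lower, with a median of 1.88. Mvd had 89.8, 94.0 and 106 CPM with PAM3, against 12.02, 10.6 and 10.1 CPM at rest (3.15 ± 0.35, adjusted p = 2.4e-06), and Lss, which closes the sterol rings, rose by 2.57 ± 0.33. The exception was Ebp, with 38.1, 41.7 and 47.9 CPM with PAM3 and 47.0, 48.1 and 44.9 CPM at rest (adjusted p = 0.288). Insig1, a brake on sterol synthesis, rose by 1.21 ± 0.31, and Scap and Npc1, the sterol sensor and a lysosomal sterol exporter, fell by 0.77 and 0.49. Of 14 fatty acid synthesis and desaturation genes, 10 were called higher and 2 lower, the second count being 1 without PAM3 library 1. Scd2, a desaturase, had 2412, 2364 and 2368 CPM with PAM3, against 264, 114 and 211 CPM at rest (3.60 ± 0.45), and Fasn and Acly rose by 2.46 and 1.19. The library of mouse 2 at rest was the lowest of the 3 at rest for 15 of the 20 cholesterol and 10 of the 14 fatty acid genes. Without it 18 and 9 genes of these lists were called higher.

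Genes that handle sterols downstream did not share that direction. Nr1h3, the oxysterol receptor LXR-alpha, had 84.2, 104 and 102 CPM with PAM3, against 10.4, 11.7 and 11.5 CPM at rest (3.11 ± 0.18, adjusted p = 4.3e-09), and of 12 LXR receptors and targets 3 were called higher and 3 lower, the second count being 1 without PAM3 library 1 or library 2 at rest. Of 7 oxysterol genes, 2 were called higher and 5 lower. Gpr183, a receptor that guides immune cells along oxysterols, had 3.40, 2.73 and 3.77 CPM with PAM3, against 42.6, 32.4 and 40.6 CPM at rest (-3.56 ± 0.26). Ch25h itself had 3.55, 1.67 and 2.14 CPM with PAM3, against 20.4, 3.16 and 10.2 CPM at rest (-2.21 ± 0.53, and -1.45 without library 1 at rest), and Cyp27a1, which makes 27-hydroxycholesterol, had a log2 fold change of -4.31, and -3.60 without library 2 at rest. Acsl1, which activates fatty acids, rose by 2.94 ± 0.42, and Cpt1a, the entry step of their mitochondrial oxidation, fell by 0.93 ± 0.13.

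Genes of the oxidative burst and of iron handling held some of the larger changes. Sod2, the mitochondrial superoxide dismutase, had 1457, 1276 and 1472 CPM with PAM3, against 44.8, 33.5 and 41.4 CPM at rest (5.14 ± 0.27, adjusted p = 1.7e-09). Of 9 superoxide and NADPH oxidase genes, 5 were called higher and 2 lower, with Rac2 and Ncf1, parts of the oxidase, higher by 2.17 and 1.39 on the log2 scale and the peroxidase gene Gpx1 lower (log2 fold change -1.92). Slc40a1, which encodes ferroportin, the only known iron exporter, had 9.27, 4.41 and 5.60 CPM with PAM3, against 345, 697 and 427 CPM at rest (-6.27 ± 0.46, adjusted p = 5.1e-08). The metal transporter genes Slc11a2 and Slc11a1 rose by 2.16 ± 0.10 and 1.64 ± 0.17. Of 19 NRF2 antioxidant genes, 9 were called higher and 2 lower. Hmox1, the haem-degrading enzyme, and Gsr, glutathione reductase, rose by 1.99 and 2.71, and Nfe2l2, the gene of NRF2 itself, fell by 0.87.

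Mitosis and DNA replication genes were lower in nearly every case. Of 29 tested mitosis genes, none was called higher and 29 lower, with a median log2 fold change of -4.26, and of 30 DNA replication genes none was higher and 27 lower, with a median of -2.41. Kif23, a motor of cell division, had 1.38, 0.783 and 1.35 CPM with PAM3, against 75.6, 59.5 and 98.2 CPM at rest (-6.12 ± 0.53), Cdc20, an activator of the anaphase-promoting complex whose upstream sequence is shown above, had 1.48, 0.989 and 1.38 CPM, against 23.2, 19.1 and 30.0 CPM at rest (-4.26 ± 0.45), and Cenpa and Ccnb2 fell by 5.93 and 5.05. Tk1, which salvages thymidine, had 1.66, 1.49 and 1.91 CPM with PAM3, against 50.6, 19.2 and 50.6 CPM at rest (-4.58 ± 0.72), and Mcm7 and Rrm2 fell by 3.49 and 4.95. The library of mouse 2 at rest was the lowest of the 3 at rest for 30 of 30 replication and 28 of 29 mitosis genes. The summed level of the replication list was 359, 381 and 442 CPM with PAM3, against 2522, 710 and 2096 CPM at rest, so the groups did not overlap with that library included. Without it 28 of 30 replication genes and 29 of 29 mitosis genes were called lower. Pcna, the replication clamp, had 76.9, 69.7 and 95.8 CPM with PAM3, against 226, 70.1 and 192 CPM at rest, and was not called (adjusted p = 0.0519) but was without that library (log2 fold change -1.37, adjusted p = 0.00817).

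**Figure D4:**
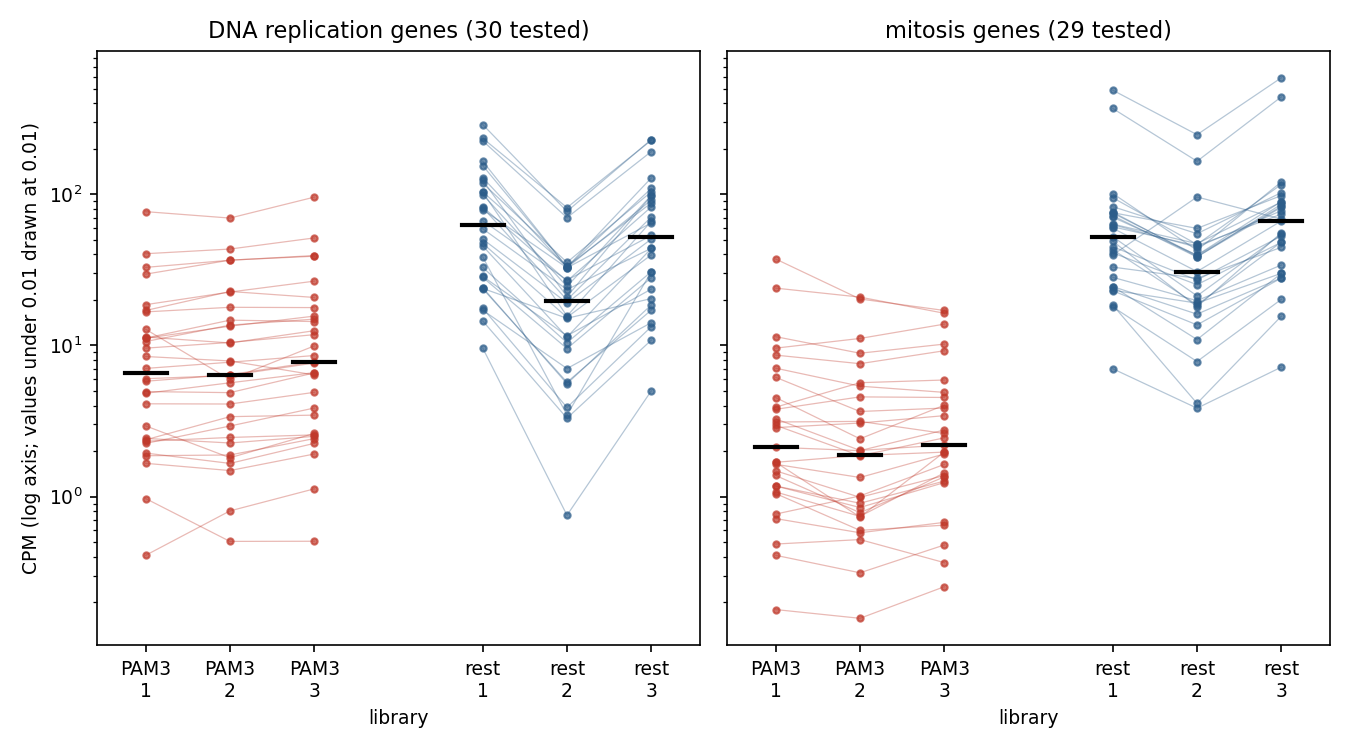
CPM, on a log axis, of the tested DNA replication genes (30, left panel) and mitosis genes (29, right panel) in the 3 PAM3 libraries (red) and the 3 libraries at rest (blue), with lines joining the values of a gene within a group and black bars at the median. Library 2 at rest is the lowest of the 3 at rest in 30 of 30 and 28 of 29 genes and lies above the PAM3 medians in both panels.

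Among regulators of arrest and survival, Cdkn1a, the CDK inhibitor p21, rose by 1.19 ± 0.15 and Cdkn2c fell by 3.25 ± 0.33. Of 18 tested CDK inhibitors, p53 targets and G1 cyclins, 4 were called higher and 7 lower, with a median log2 fold change of -0.26. The anti-apoptotic Bcl2a1 genes rose, Bcl2a1a with 81.0, 63.8 and 77.5 CPM with PAM3 against 0.185, 0.167 and 0.312 CPM at rest, and Bcl2a1d and Bcl2a1b by 6.02 and 3.41 on the log2 scale. These copies are nearly identical, so the division of reads between them is uncertain. Cflar, an inhibitor of caspase-8, rose by 1.86 and the pro-apoptotic Bcl2l11 and Pmaip1 fell by 2.01 and 2.13. The anti-apoptotic Mcl1, chosen after its values were seen, had 347, 338 and 408 CPM with PAM3, against 553, 628 and 600.3 CPM at rest, and fell by 0.70 ± 0.11 (adjusted p = 4.1e-05). Of 19 tested BCL2 family genes 7 were called higher and 6 lower, with a median of 0.10. Of 25 integrated stress response genes, 20 were called higher and none lower, with a median of 1.49. Its transcription factor gene Atf4 had 323, 345 and 421 CPM with PAM3, against 128, 88.0 and 103 CPM at rest (1.77 ± 0.19, adjusted p = 1.7e-06), and its targets Trib3 and Mthfd2 rose by 2.31 and 3.16. Of 21 chaperone and unfolded protein response genes, 16 were called higher and none lower, or 1 lower without library 2 at rest. Hyou1 and Manf were higher by 1.87 and 1.83. Library 2 was the lowest of the 3 at rest for 15 of the 25 stress response and 18 of the 21 chaperone genes.

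Interferon-stimulated genes had log2 fold changes between -1.61 and 2.38. Of 45 tested, 13 were called higher, 11 of them at least 2-fold, and 4 lower, 2 of them at least 2-fold, with a median of 0.20, and the second count was 2 without PAM3 library 2 or library 2 at rest. Those called higher included Isg15, with 172, 148 and 252 CPM with PAM3 against 46.7, 38.1 and 24.8 CPM at rest (2.38 ± 0.47), Usp18 (2.26 ± 0.37) and Zbp1 (1.93 ± 0.40). Antigen presentation was divided. H2-Ab1, a class II chain, had 57.9, 57.2 and 66.4 CPM with PAM3, against 8.81, 10.6 and 8.48 CPM at rest (2.70 ± 0.47), and Ciita, the class II transactivator, fell by 3.07 ± 0.59. Of 8 class II genes H2-Ab1 alone was called higher and 4 were lower, or 2 without PAM3 library 1. Psme2, a proteasome activator, rose by 2.28 ± 0.16, and of 13 class I and immunoproteasome genes 5 were called higher, or 3 without PAM3 library 3 or library 3 at rest. None was lower, or 1 without library 1 or library 3 at rest. Cd274, which encodes the checkpoint ligand PD-L1, had 330, 195 and 206 CPM with PAM3, against 19.3, 41.4 and 24.1 CPM at rest (3.10 ± 0.35), and Cd40 rose by 1.35. Cd83 fell to 5.95, 5.77 and 6.05 CPM with PAM3, against 65.3, 86.5 and 65.9 CPM at rest (-3.62 ± 0.24, adjusted p = 1.8e-08), and Havcr2, the receptor TIM-3, by 4.71 ± 0.39.

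Complement, proteases, integrins and purine receptors each held large changes in both directions. C3, the central complement protein, had 2128, 1467 and 1901 CPM with PAM3, against 162, 201 and 131 CPM at rest (3.48 ± 0.36), and Cfb of the alternative pathway rose by 6.12 ± 0.60. Of 13 tested complement genes 5 were called higher and 5 lower. Cd55, which guards cells against complement, rose by 3.73 ± 0.25. Mmp14, a membrane-bound matrix protease, had 459, 351 and 412 CPM with PAM3, against 0.773, 0.766 and 0.499 CPM at rest (9.22 ± 0.45, adjusted p = 9.5e-10), Mmp9 rose by 3.71 and Timp2, an inhibitor of such proteases, fell by 2.51. Itgal, the integrin chain of LFA-1, had 1745, 2070 and 1652 CPM with PAM3, against 37.0, 35.4 and 24.6 CPM at rest (5.82 ± 0.47), and the integrin chain gene Itgb3 fell by 6.11 ± 0.36. Adora2a, a receptor for adenosine that restrains inflammation, rose by 7.27 ± 0.29 (adjusted p = 8.9e-11), Entpd1, which breaks down extracellular ATP, fell by 5.16 ± 0.61, and the ADP receptor genes P2ry12 and P2ry13 fell by 3.77 and 4.60. Of 16 circadian clock genes, 2 were called higher and 9 lower, Npas2, Rora and Nr1d2 falling by 5.04, 2.44 and 1.75 and Cry1 rising by 1.71.

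The PAM3 response was also set against that of B6 macrophages given 25HC, by the difference of the 2 log2 fold changes in the same edgeR fit. The responses differed in 3611 of 12741 genes (28.3%), with a difference above 0 in 2014 and below 0 in 1597, and a median of 0.08 over all tested genes. Of 45 interferon-stimulated genes 33 differed, all 33 with a difference above 0, and 22 differed without library 3 at rest. Of 20 cholesterol synthesis genes 17 differed, all above 0. Isg15 averaged 191 ± 54.5 CPM with PAM3 and 36.6 ± 11 CPM at rest without 25HC, and 28.2 ± 8.74 and 30.3 ± 11.7 CPM with 25HC (SD, n = 3 each; log2 difference 2.48 ± 0.64, adjusted p = 0.0114, edgeR). Lss averaged 154 ± 1.80 and 26.0 ± 5.49 CPM without 25HC, and 16.7 ± 0.641 and 16.5 ± 1.20 CPM with it (2.55 ± 0.46, adjusted p = 0.00166). Of 25 integrated stress response genes 17 differed, 14 above 0 and 3 below. For Irg1 the difference was above 0 (3.21 ± 0.97, adjusted p = 0.024) although its level with PAM3 was 1949 ± 814 CPM without 25HC and 3295 ± 294 CPM with it, since at rest it was 6.08 ± 3.41 and 93.7 ± 81.7 CPM. No mitosis, DNA replication or acute-phase gene was called, of 29, 30 and 12. With mouse as a block, 6 mitosis, 3 replication and 1 acute-phase gene were called, and 17 instead of 10 of 21 glycolysis genes. Without PAM3 library 3 the count of glycolysis genes was 6, and without library 1 at rest 1 replication gene was called.

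**Figure D5:**
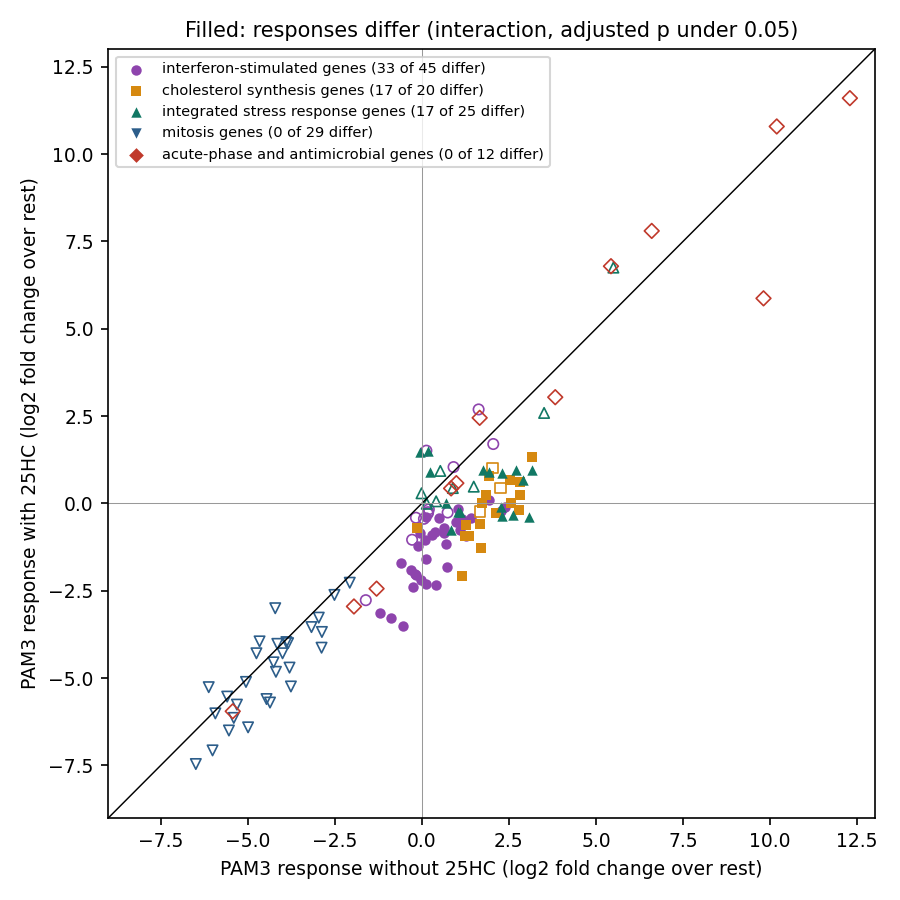
Each point is a tested gene of 1 of 5 groups, with its PAM3 response (log2 fold change over rest) without 25HC on the x axis and with 25HC on the y axis. Filled points had responses that differed (adjusted p below 0.05), and the line marks equal responses. Cholesterol synthesis genes that differed (17 of 20) and interferon-stimulated genes that differed (33 of 45) lie below the line, and mitosis genes lie at the lower left.

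Set against the PAM3 response of Ch25h-/- macrophages, 0 of 12741 genes differed by edgeR, with 598 at an unadjusted p below 0.05 and a smallest adjusted p of 0.481. DESeq2's Wald test called 4 genes, Rgs11, Irf2bp2, Hmox1 and Lcn2, which were chosen after their values were seen. Their log2 differences were 1.17, 0.83, 0.79 and 2.96, with adjusted p of 0.00417, 0.0148, 0.0494 and 0.0494. The absence of calls does not show that the responses were the same.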

How the data were processed

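RNA of bone-marrow-derived macrophages was measured in 18 libraries from 6 groups of 3, and 6 libraries are compared here. The authors deposited whole-number read counts per gene, prepared with Illumina TruSeq stranded kits per the labels' protocols. The submitters' processing notes name FastQC 0.11.9, GSNAP, featureCounts of Subread 1.5.2, edgeR 3.26.8 and the build GRCm38 (mm10), without saying which step each was used for. The sources used here do not give the strand setting or the treatment of reads with several matches.

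Counts were fitted with edgeR 4.0.16 in R 4.3.3 (limma 3.58.1): all 18 libraries with a mean per group, TMM scaling, filterByExpr, the robust quasi-likelihood F test and Benjamini-Hochberg adjustment over 12741 tested genes of 30530 rows, with a threshold of 0.05. The biological coefficient of variation was 0.192 with 12 residual degrees of freedom. CPM values use TMM-scaled library sizes, and standard errors were derived from each fold change and its F statistic. The steps were run on simulated counts with few changed genes, evenly split between rises and falls, and no shared mouse. That check of the code does not cover data in which most genes differ. Of the identifiers tested, 12692 were in GENCODE M21, the source of gene coordinates. Promoter windows are from RefSeq (GRCm38.p6). Differences between PAM3 responses are interaction terms of the same fit. DESeq2 1.42.0 served as an alternative.

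Named genes were the 12 largest rises and 12 largest falls with at least 5 CPM in a group and no overlap. The 8 most abundant rises and falls of at least 2-fold were added, with up to 6 called and 2 uncalled members of each of 49 gene lists. The receptors and Ch25h were also named. So were the genes with the smallest adjusted p in each difference of responses, among those called between PAM3 and rest with at least 5 CPM in a group. The text names a selection of these, and a few are not reported here. The comparison, lists and named genes were chosen with earlier results of these data known. Libraries with the same number came from the same mouse per the labels, and deviations of same-numbered libraries from their group means correlated at 0.226, 0.306 and -0.0777. Those of libraries with different numbers correlated at -0.297 to 0.241. The main fit has no mouse term. No pair of libraries agreed within counting noise (chi-square per degree of freedom of at least 24.9). With 3 mice a group, p-values rest on the spread within all 6 groups of the fit. The fit treats libraries of the same mouse as independent.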

Additional observations from a re-analysis of the deposited data

Results flagged for a closer look

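The PAM3 response differed between untreated and 25HC-treated B6 macrophages in 3611 genes by edgeR's interaction term. Not all of these were ranked for naming. Ranked genes were also called between PAM3 and rest without 25HC and averaged at least 5 CPM in 1 of those groups. Predicted genes and pseudogenes were left out. Among the ranked genes, the 6 with the smallest adjusted p, all 6.5e-05 by edgeR, were Cd83, Pmaip1, Cd80, Klf11, Zbtb10 and Camk2g. In each the difference itself was tested. Cd83, a surface marker of activated antigen-presenting cells, averaged 5.92 ± 0.141 CPM with PAM3 and 72.6 ± 12.1 CPM at rest without 25HC, and 25.7 ± 1.60 and 39.8 ± 15.3 CPM with it (SD, n = 3 each), a log2 difference of -2.99. Pmaip1, a pro-apoptotic BCL2 family gene, averaged 10.3 ± 1.32 and 45.1 ± 3.54 CPM without 25HC, and 42.9 ± 5.51 and 40.5 ± 7.11 CPM with it, a difference of -2.22. Cd80, a costimulatory ligand of T cells, averaged 6.70 ± 1.56 and 15.1 ± 1.16 CPM without 25HC, and 55.8 ± 13.2 and 12.96 ± 2.19 CPM with it, a difference of -3.28. It was lower with PAM3 in untreated cells, and its mean was higher with PAM3 in 25HC-treated cells.

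Klf11, a zinc finger transcription factor, averaged 1.96 ± 0.257 and 12.6 ± 1.05 CPM without 25HC, and 12.5 ± 0.813 and 12.6 ± 1.11 CPM with it, a difference of -2.68. Zbtb10 had a difference of -3.19. Camk2g, a calcium/calmodulin-dependent kinase, averaged 50.5 ± 3.32 and 44.1 ± 0.853 CPM without 25HC, and 29.2 ± 0.581 and 50.6 ± 0.462 CPM with it, a difference of 0.99. Its own PAM3 response without 25HC, 0.19 on the log2 scale, was called in the main setting and not in 7 of 13 alternatives.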

How the results depend on the processing

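The count of genes called between PAM3 and rest, 7912, was 8081 with DESeq2 and 7887 with DESeq2's size factors. This count was 7367 with a filter at 1 CPM in 3 libraries and 7989 without a filter. With only the groups compared it was 6590, and without 1 library it was 7298 to 7753. With mouse as a block, the pairing given by the labels, it was 8391, of which 7846 were among the 7912. The count of responses that differed with 25HC, 3611, was between 2519 and 5110 in all settings, 4513 with the mouse block and 2519 to 4481 without 1 library. Without a filter it was 2812, and the share with a difference above 0 was 45.5% rather than 55.8%. Against Ch25h-/- macrophages DESeq2 called 4 genes, edgeR 0 in the main setting and 0 without any 1 library of the compared B6 groups. The cause was not tested. No direction of a named gene reversed in the settings run. Depth differed between libraries, so genes of few counts are least certain, and stimulus and culture time cannot be told apart.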
